A study of Homo sapiens with 12 samples.

Results

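In NCCIT cells given EED and RNF2 siRNA pools, far more genes were called lower than higher against the RNF2 pool alone. The calls ask for a difference of at least 1.5-fold. The 2 arrays of the dual knockdown, siEED+RNF2, were set directly against the 2 arrays of siRNF2 alone, so these are 4 of the 12 arrays of the series. Of 18417 genes tested, 558 were lower in siEED+RNF2 than in siRNF2 (3.03%) and 44 were higher (0.239%), so that 92.7% of the 602 called genes were lower. Zinc finger genes and genes of the centrosome, the Golgi tethers, the SMC complexes and the DNA damage response stood among the lower genes, and cholesterol synthesis genes stood among the higher ones.

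Polycomb proteins keep developmental genes silent through 2 kinds of complex. PRC2 methylates histone H3 at lysine 27 through EZH2 or EZH1, and needs SUZ12 as scaffold and EED, which also binds the finished mark. PRC1 ubiquitylates histone H2A through RING1 or RNF2, and its canonical forms are recruited by CBX proteins that read the PRC2 mark. NCCIT is an established human embryonal carcinoma line from a germ cell tumour, with features of pluripotent cells. The comparison asks what EED siRNA adds when RNF2 is already targeted.

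In both groups the RNF2 siRNA pool was present, and siEED+RNF2 cells received the EED pool as well. Per the study's methods the dual mix combined both pools, so the added EED siRNA and the larger total of siRNA and reagent cannot be told apart. The other arrays used here are 2 with the EED pool alone (siEED) and 2 with a non-targeting control siRNA (siNTC, labelled as a re-analysis). The siWDR5 and siSETD2 arrays, 2 each, entered the shared estimate of spread. RNA of each sample was hybridised to an Affymetrix Human Gene ST array, and the deposited values are log2 signals from 3.18 to 15.01, with array medians of 6.29 to 6.36. Across transcript clusters the siEED+RNF2 arrays correlated with each other at 0.9964 and with the siRNF2 arrays at 0.9932 to 0.9945, and the siRNF2 arrays with each other at 0.9969. SOX2, a pluripotency factor, measured 12.51 and 12.53 in siEED+RNF2 against 12.70 and 12.68 in siRNF2. Of the other embryonal carcinoma markers, L1TD1 was lower (log2 difference -0.80). LIN28B (-0.51), CRIPTO (-0.38), DPPA4 (-0.04), DNMT3B (0.09), SALL4 (0.13) and LIN28A (0.29) were not called. POU5F1 and NANOG, also markers of these cells, were not among the genes tested. Of 22 measured markers of endoderm, trophoblast and neural cells, 0 were lower and 1 was higher (4.55%, against 0.239% of all genes tested). It was STMN2, a neuronal microtubule regulator (log2 difference 0.78), and any part of other cell types in the results was not tested. Neither labels nor methods say whether replicate arrays came from separate cultures, so p-values reflect only how far these arrays lie apart, and 2 arrays a group limit the precision.

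A gene was called when limma gave a Benjamini-Hochberg adjusted p under 0.05 over all genes and the groups differed at least 1.5-fold, that is by 0.585 on the log2 scale. The median standard error of a difference was 0.08. In every called gene, 558 lower and 44 higher, the siEED+RNF2 arrays did not overlap the siRNF2 arrays. A difference this large against its standard error nearly always separates the arrays, so this adds little to the call. The share of all genes without overlap was not counted. The median log2 difference was -0.74 in the genes called lower, 0.72 in those called higher and 0.02 over all genes. A difference of at least 2-fold was reached by 64 of the lower and 4 of the higher genes. Before adjustment, and at any fold, 2953 genes were lower and 2505 higher at p under 0.05.

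**Figure D1:**
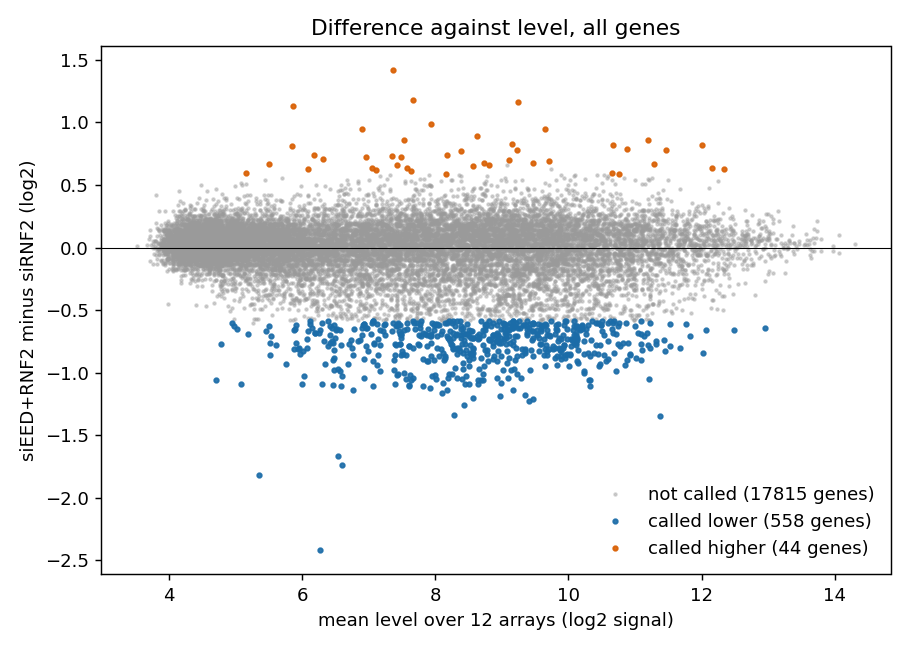
Log2 difference siEED+RNF2 minus siRNF2 (vertical axis) against the mean log2 signal over the 12 arrays (horizontal axis), 1 point per gene. The 558 genes called lower (blue) outnumber the 44 called higher (orange), and the lower ones spread over most of the signal range. Their median signal was 8.71, against 6.9 over all genes.

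EED, the target of the added pool, was lower in the dual knockdown. It measured 7.93 and 7.82 in siEED+RNF2, against 8.85 and 8.80 in siRNF2. The arrays did not overlap, and the log2 difference of -0.95 (standard error 0.08, limma adjusted p = 1.6e-05) left 51.8% of the siRNF2 signal. The same pool without siRNF2 left EED at 8.25 and 8.14 in siEED, against 9.55 and 9.43 in siNTC, a log2 difference of -1.29. EED was already lower in siRNF2 than in siNTC, by a log2 difference of -0.66, and in siEED+RNF2 by -1.61. The difference between both effects of the pool on EED was 0.34 on the log2 scale (limma adjusted p = 0.043), short of the fold threshold. The transcript targeted by the RNF2 pool was not analysed here.

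SUZ12 was the other PRC2 subunit called lower. It measured 10.52 and 10.59 in siEED+RNF2, against 11.17 and 11.11 in siRNF2, a log2 difference of -0.59 (standard error 0.06, limma adjusted p = 4.8e-05). Both siEED+RNF2 arrays lay below every other array of the series, and siEED at 11.22 and 11.17 overlapped siNTC at 11.18 and 11.22. The call stands close to the fold threshold, and SUZ12 fell short of it without siEED+RNF2 replicate 1 (-0.55), without siRNF2 replicate 1 (-0.56) and after centring arrays on the gene median (-0.54).

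The remaining 12 of 14 PRC2 subunits were not called. EZH2, the main catalytic subunit, measured 10.80 and 10.85 in siEED+RNF2 and 11.03 and 10.91 in siRNF2, a log2 difference of -0.15 with a 95% interval of -0.29 to 0.00. MTF2, AEBP2, LCORL and LCOR, accessory subunits, had log2 differences of -0.34, -0.34, -0.49 and -0.29. Their limma adjusted p ran from 0.00054 (LCORL) to 0.0055 (LCOR), so they were lower too and missed only the fold threshold. The histone-binding subunits RBBP4 and RBBP7 and the cofactor JARID2 had values of 0.11, 0.13 and 0.12. Of 35 PRC1 subunits measured, 0 were called by limma, against 3.03% lower and 0.239% higher over all genes, and 0 lies close to those shares. Their log2 differences ran from -0.52 (YAF2, a RING1-binding subunit) to 0.39 (PCGF3, a RING finger partner). RING1, the paralogue of RNF2, had a log2 difference of -0.03. Among 11 erasers and readers of the polycomb marks, 1 was lower (9.09%), USP16, a histone H2A deubiquitinase (-0.88).

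HOX genes and developmental transcription factors are known polycomb targets. Of 27 HOX genes measured 0 were called by limma, against 3.03% lower and 0.239% higher over all genes, with log2 differences between -0.48 and 0.24 and a median of 0.00. HOXB2, a patterning gene of the hindbrain, measured 7.65 and 7.26 in siEED+RNF2, against 7.86 and 7.69 in siRNF2. Of 57 developmental transcription factors 0 were called, with a median of -0.02. Both lists were dim on the arrays, with median signals of 4.80 and 5.36 against 6.90 over all genes, and 0 calls among so few genes lie close to the share over all genes. Among 25 pluripotency genes, LEFTY2, a secreted inhibitor of NODAL, was higher, with 8.04 and 7.95 in siEED+RNF2 and 7.08 and 7.20 in siRNF2 (log2 difference 0.86). L1TD1, an RNA-binding protein of embryonic stem cells, was lower (-0.80). In the DNA methylation machinery 1 of 17 genes was higher, DNMT3L, a cofactor of the de novo methyltransferases (0.61), and 1 was lower, the methyl-CpG binding factor ZBTB38 (-0.60). DNMT3L was not called without siRNF2 replicate 2 (0.56), nor was ZBTB38 without siRNF2 replicate 1 (-0.53) or siEED+RNF2 replicate 2 (-0.58), after centring arrays on the gene median (-0.55), with quantile normalization (-0.57) and with the mean of its clusters (-0.47).

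**Figure D2:**
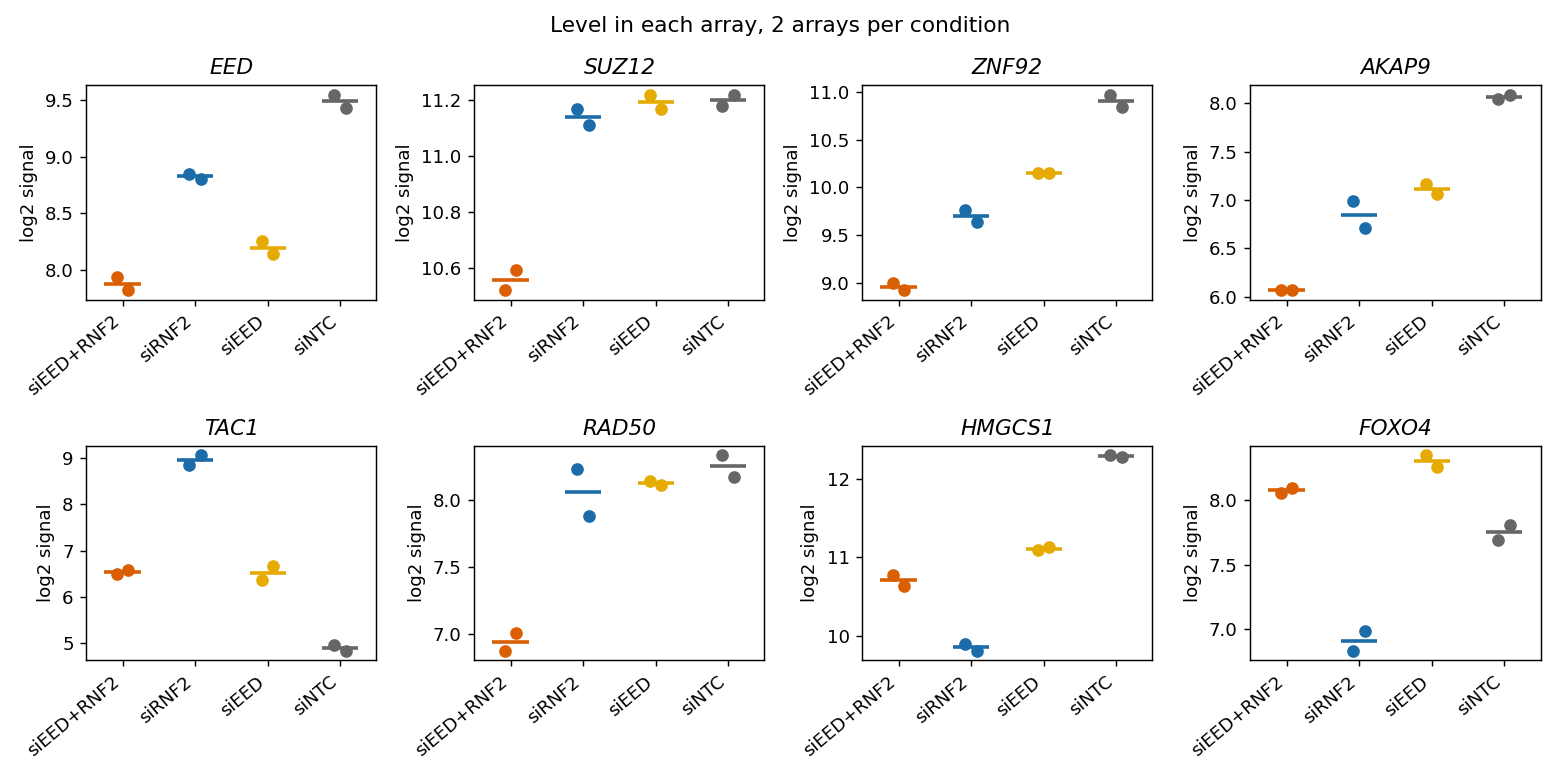
Log2 signal (vertical axes, each with its own range) of 8 genes in the arrays of siEED+RNF2, siRNF2, siEED and siNTC. Points are arrays and bars are means of 2 arrays. EED, SUZ12, ZNF92, AKAP9, TAC1 and RAD50 lie lower in siEED+RNF2 than in siRNF2, and HMGCS1 and FOXO4 lie higher.

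The zinc finger genes were a large family among the lower genes. Most encode DNA-binding repressors, many of them with a KRAB domain, which recruits TRIM28 and H3K9 methylation to DNA. Of 439 genes named ZNF and a number, 64 were lower (14.6%, against 3.03% of all genes tested) and 0 were higher, and they made up 11.5% of the lower genes against 2.38% of the genes tested. Their median log2 difference was -0.11, against 0.02 over all genes.

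ZNF721 had the largest decrease of the family. It measured 6.77 and 6.63 in siEED+RNF2, against 8.17 and 7.91 in siRNF2, a log2 difference of -1.34 (standard error 0.09, limma adjusted p = 6.1e-06). ZNF569 and ZNF675 were lower by log2 differences of -1.12 and -1.05, and ZNF678 by -1.01. ZNF92 measured 9.0 and 8.93 in siEED+RNF2, against 9.77 and 9.64 in siRNF2, a log2 difference of -0.74 (limma adjusted p = 0.00015). For ZNF92 the arrays of both groups lay below the siNTC arrays at 10.97 and 10.84, and the siEED+RNF2 arrays lay lowest.

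Chromosome 19 holds the large clusters of this family. The share of lower ZNF genes was 14% of 221 on that chromosome and 15.1% of 218 elsewhere. Their median log2 differences were -0.19 on that chromosome and -0.06 elsewhere. Of 1087 other genes on chromosome 19, 2 were lower (0.184%). Of 18 corepressor and H3K9 genes, which act with KRAB factors, 2 were lower (11.1%, against 3.03% of all genes tested). They were the remodeller SMARCAD1 (-0.87) and the HUSH subunit MPHOSPH8 (-0.63). TRIM28, the KRAB corepressor, had a log2 difference of 0.28 and was not called. MPHOSPH8 fell just short without siEED+RNF2 replicate 1 and after centring arrays on the gene median (-0.58 in each). ZNF genes resemble each other in sequence, and signal shared between them was not tested.

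Genes of the centrosome, where microtubules and cilia are anchored, were lower in large part. Of 56 measured, 24 were lower (42.9%, against 3.03% of all genes tested), 0 were higher, and the median log2 difference was -0.47. AKAP9, a scaffold that anchors kinases and microtubule nucleators, measured 6.07 in both siEED+RNF2 arrays, against 6.99 and 6.71 in siRNF2 (log2 difference -0.78, limma adjusted p = 0.00010). The siRNF2 arrays were further apart than the siEED+RNF2 arrays, and no array overlapped. IFT74, of the intraflagellar transport train, measured 7.55 and 7.32 in siEED+RNF2 and 8.65 and 8.49 in siRNF2 (-1.14). CEP290 of the ciliary transition zone was lower by a log2 difference of -1.04, CCDC18 by -1.04, and CEP135 and SASS6, both of the centriole core, by -1.01 and -0.99. Uncalled members included STIL, a centriole assembly factor (-0.06).

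Coiled-coil tethers of the Golgi and endosomes, which catch transport vesicles, gave a similar picture. Of 31 measured, 14 were lower (45.2%, against 3.03% of all genes tested), 0 were higher, and the median log2 difference was -0.47. HOOK1, a microtubule adaptor, measured 7.58 and 7.57 in siEED+RNF2, against 8.97 and 8.69 in siRNF2 (-1.26). GCC2 and TMF1, both Golgi tethers, had log2 differences of -1.04 and -1.01, and EEA1, the early endosome tether, of -0.92. KTN1, which binds kinesin at the endoplasmic reticulum, and SLK, a kinase of the cytoskeleton, were among the 15 lowest genes at -1.18 and -1.19.

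Among the SMC complexes, which hold and fold chromosomes, 9 of 24 genes were lower (37.5%, against 3.03% of all genes tested) and 0 higher, with a median log2 difference of -0.34. ESCO1, which acetylates cohesin, measured 8.30 and 8.27 in siEED+RNF2, against 9.61 and 9.42 in siRNF2 (-1.23). SMC6, of the SMC5/6 complex, measured 9.23 and 9.24 in siEED+RNF2, against 10.40 and 10.30 in siRNF2 (-1.11). SMC3 of cohesin and SMC2 and SMC4 of condensin were lower by log2 differences of -1.06, -0.87 and -0.82. SMC1A of cohesin had a value of 0.01 and NCAPD2 of condensin 0.13, so the subunits of a complex did not move alike.

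Of 37 DNA damage response genes, 13 were lower (35.1%, against 3.03% of all genes tested) and 0 higher, with a median log2 difference of -0.45. RAD50, of the MRN complex at broken ends, measured 6.88 and 7.01 in siEED+RNF2 and 8.23 and 7.88 in siRNF2 (-1.11, limma adjusted p = 5.0e-05). Its partner NBN was lower by -0.80, the translesion polymerase POLK by -1.05, the ATR activator ETAA1 by -0.86 and BRCA1 by -0.82. PRKDC and XRCC5, both of end joining, had log2 differences of 0.05 and 0.13.

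Mitotic genes were divided. Of 43 centromere and kinetochore genes 10 were lower (23.3%) and of 47 spindle and cytokinesis genes 10 were lower (21.3%), against 3.03% of all genes tested, with 0 higher in either list and medians of -0.08 and -0.02. CENPC, which links the centromere to the kinetochore, measured 6.75 and 6.53 in siEED+RNF2, against 7.78 and 7.71 in siRNF2 (-1.10). SGO2, a protector of cohesin, had a log2 difference of -1.09, the kinetochore motor CENPE -0.96, the spindle factor HMMR -1.06 and the mitotic kinesins KIF14 and KIF18A -0.98 and -0.88. In contrast the mitotic kinases PLK1 and AURKB and the checkpoint target CDC20 had values of 0.14, 0.26 and 0.21 and were not called.

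DNA replication genes served as a neighbouring process: 1 of 42 was lower (2.38%, against 3.03% of all genes tested), RFC1 of the clamp loader (-0.63). Their median was 0.12. RFC1 was not called without siRNF2 replicate 1 (-0.56) or after centring arrays on the gene median (-0.58), which leaves 0 called. Of 28 nuclear pore and lamina genes 2 were lower (7.14%), TPR (-0.77) and RANBP2 (-0.65), of which RANBP2 was not called without siRNF2 replicate 1 (-0.50). In the siRNA and RNA decay list 3 of 21 were lower (14.3%), the nonsense-mediated decay factor UPF2 (-0.82), the exosome nuclease DIS3 (-0.78) and the exonuclease XRN1 (-0.67). Of 38 interferon-stimulated genes, which respond to double-stranded RNA, 0 were called, and so were 0 of 24 p53 targets and 0 of 23 ERK feedback genes. Over all genes 3.03% were lower and 0.239% higher, and 0 calls in lists this small lie close to those shares.

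**Figure D3:**
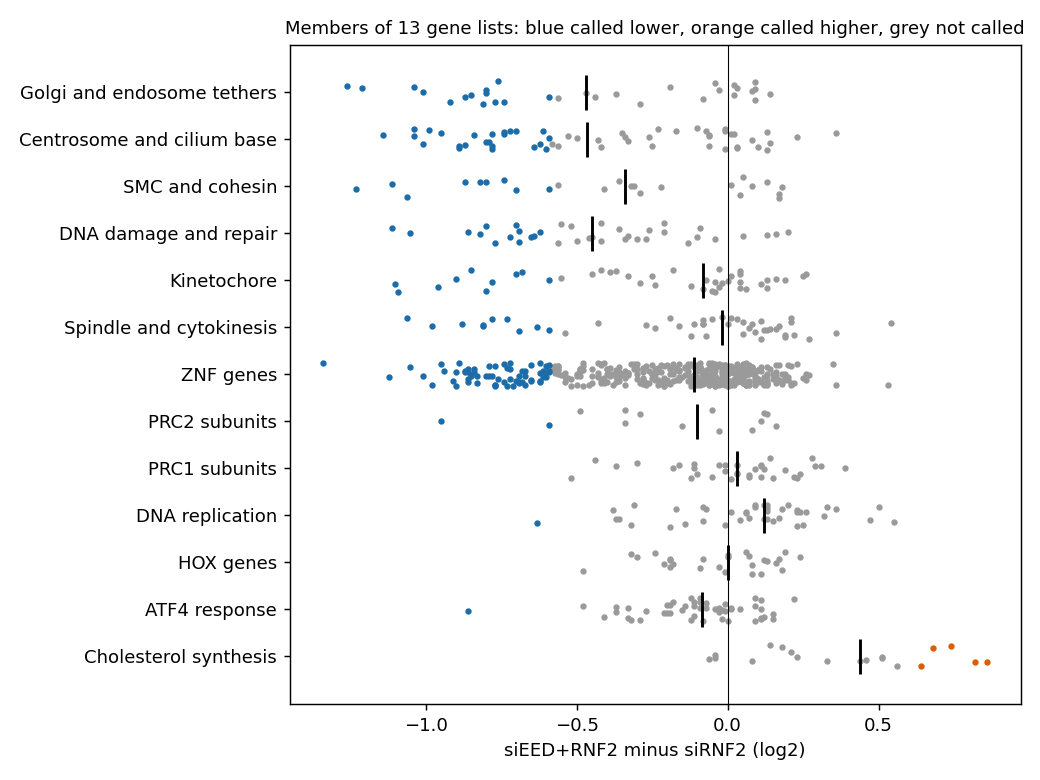
Log2 difference siEED+RNF2 minus siRNF2 (horizontal axis) of the measured genes in 13 lists. Blue points were called lower, orange higher and grey not called, and black bars are medians. The medians of the Golgi tethers and the centrosome lie at -0.47, that of PRC1 at 0.03 and that of cholesterol synthesis at 0.44.

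The lower genes were long. Their median span in the RefSeq annotation was 64 kb over 557 genes, against 15.1 kb in the 44 higher genes and 24.5 kb over all genes. In 10 bins of genes ordered by span, 0.435%, 0.163% and 0.381% were lower in the shortest 3 bins, and 6.04%, 6.75% and 5.06% in the longest 3. Among genes in the upper part of the array signal, split at the median, the share was 0.199% in the shortest bin and 10.1% in bin 9. Across genes, which are not independent replicates, the difference had a Spearman correlation with span of -0.22. For siEED against siNTC the share of lower genes was 2.5% in the shortest and 3.92% in the longest bin, and the Spearman correlation was 0.05.

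Median spans differed between the lists. The median span was 86.8 kb in the Golgi tethers, 77.5 kb in the centrosome list and 96.8 kb in the DNA damage list, while PRC1 subunits had a median span of 64.3 kb and 0 calls. The kinetochore and spindle lists, with 23.3% and 21.3% lower, had median spans of 29.7 and 34.1 kb, and the siRNA and RNA decay list, with 14.3% lower, 86.5 kb. ZNF genes had a median span of 23.5 kb. Median signals were 8.43 in the Golgi tethers, 9.92 in the kinetochore list and 9.1 in PRC1, against 6.9 over all genes. The part of span or signal in each list's count was not tested.

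**Figure D4:**
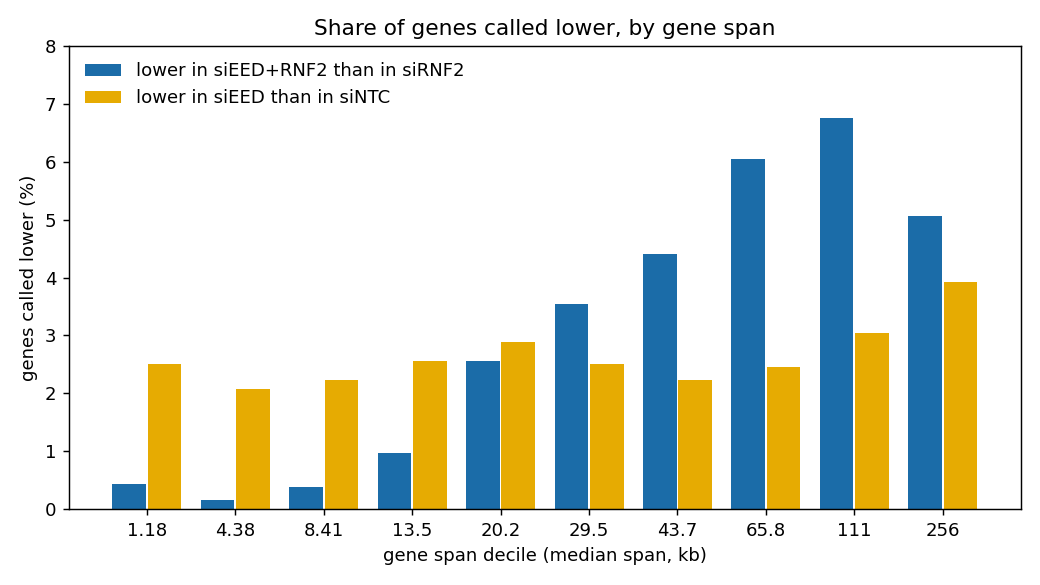
Percent of genes called lower (vertical axis) in 10 bins of gene span, labelled by their median span in kb (horizontal axis). Blue bars are siEED+RNF2 against siRNF2 and yellow bars siEED against siNTC. The blue share is 0.435% in the shortest bin and 6.75% in bin 9, and the yellow share is 2.5% and 3.05% there.

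The 5 steepest decreases were in genes that also stood higher in siRNF2 than in siNTC. TAC1, the precursor of substance P, measured 6.49 and 6.59 in siEED+RNF2, against 8.86 and 9.06 in siRNF2. Its log2 difference of -2.42 (standard error 0.11, limma adjusted p = 7.3e-07) left 18.7% of the siRNF2 signal. The siNTC arrays had 4.96 and 4.84, so that both siEED+RNF2 arrays lay between siRNF2 and siNTC.

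SV2B, a synaptic vesicle protein, measured 5.52 in both siEED+RNF2 arrays, against 7.31 and 7.36 in siRNF2 (-1.82). CLGN, a chaperone of the endoplasmic reticulum, measured 6.55 and 6.71 in siEED+RNF2, against 8.39 and 8.33 in siRNF2 (-1.74). LAMP3, a lysosomal membrane protein, measured 7.78 and 7.39 in siEED+RNF2, against 9.48 and 9.03 in siRNF2 (-1.67), with replicates further apart than in the other genes. For siRNF2 minus siNTC, which uses the same siRNF2 arrays, the log2 values of TAC1, SV2B, CLGN and LAMP3 were 4.06, 2.88, 3.12 and 4.27. SNX10, an endosomal sorting protein, and MAL2, of transcytosis, followed the same order with -1.16 and -1.35 against siRNF2 and 1.54 and 2.17 for siRNF2 minus siNTC.

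Other genes among the 15 lowest were not called higher in siRNF2 than in siNTC. ZNF721 was lower there by -0.93, while KTN1, ODF2L, IFT74 and HOOK1 had uncalled log2 values of -0.54, -0.26, 0.27 and 0.34 for siRNF2 minus siNTC. ESCO1 and ZBTB41, a zinc finger factor, each had a log2 value of -0.05 for siRNF2 minus siNTC, and SLK -0.09, and they were lower in siEED+RNF2 than in siRNF2 by -1.23, -1.20 and -1.19. ODF2L, a centriolar protein, measured 8.33 and 8.28 in siEED+RNF2 and 9.47 and 9.42 in siRNF2 (-1.14).

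Fewer genes rose. ACTG2, the smooth muscle gamma actin, measured 7.71 and 7.94 in siEED+RNF2, against 6.33 and 6.49 in siRNF2, a log2 difference of 1.42 (standard error 0.12, limma adjusted p = 1.3e-05). FOXO4, a forkhead factor of the stress response, measured 8.06 and 8.10 in siEED+RNF2, against 6.83 and 6.98 in siRNF2 (1.18). IGFBP5, which binds insulin-like growth factors, and PKDCC, a secreted tyrosine kinase, were higher by 1.13 and 0.99. No array of these genes overlapped between the groups. For siRNF2 minus siNTC, which uses the same siRNF2 arrays, ACTG2, FOXO4, IGFBP5 and PKDCC had log2 values of -2.76, -0.85, 0.42 and 0.32. For siEED+RNF2 minus siNTC they had -1.35, 0.33, 1.55 and 1.31, so ACTG2 stayed below the control.

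SLC19A3, a thiamine transporter, and ADAMTS9, a matrix protease, had log2 differences of 0.95 and 0.83. The variant U1 small nuclear RNA genes RNVU1-3 and RNVU1-4 were higher by 1.16 and 0.95 and the U5 gene RNU5D-1 by 0.82. These belong to families of near-identical copies, so their values are uncertain. For siRNF2 minus siNTC, RNVU1-3, RNVU1-4 and RNU5D-1 had log2 values of -0.78, -0.87 and 0.09. RNU5D-1 measured 12.30 and 12.61 in siEED+RNF2 against 11.34 and 11.92 in siRNF2, and it lost its call without siEED+RNF2 replicate 2 (0.67), without siRNF2 replicate 1 (0.53), without moderation of the variance and with a variance trend.

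Cholesterol synthesis, which the SREBP factors drive together with NF-Y bound at CCAAT boxes, held a group of higher genes. Of 19 measured, 5 were higher (26.3%, against 0.239% of all genes tested) and 0 lower, with a median log2 difference of 0.44. HMGCS1, which makes HMG-CoA, measured 10.77 and 10.64 in siEED+RNF2, against 9.90 and 9.81 in siRNF2, a log2 difference of 0.86 (standard error 0.07, limma adjusted p = 8.9e-06). DHCR7, of the last step, measured 10.66 and 10.75 in siEED+RNF2, against 9.88 and 9.90 in siRNF2 (0.82). INSIG1, which retains SREBP in the endoplasmic reticulum, LSS, the lanosterol synthase, and MSMO1, a sterol oxidase, were higher by 0.74, 0.68 and 0.64.

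HMGCS1 still lay below the control. It had 12.30 and 12.28 in siNTC, so its siEED+RNF2 arrays stood between siRNF2 and siNTC. For siRNF2 minus siNTC, on shared arrays, 11 of the 19 cholesterol genes were lower and 1 higher, with a median of -0.95. For siEED+RNF2 minus siNTC 8 were lower and 1 higher, with a median of -0.53. The medians over all genes were -0.04 and -0.02, and the shares of all genes called in these comparisons with siNTC were not counted. SQLE, the squalene epoxidase, and ACAT2, the first enzyme, had log2 differences of 0.56 and 0.51 and did not reach the fold threshold, and SC5D, a late desaturase, had -0.06. MSMO1 fell short of it without siEED+RNF2 replicate 1 (0.56). Fatty acid genes outside the list were among the 15 highest, namely the acetyl-CoA synthetase ACSS2 (0.89), the fatty acid synthase FASN (0.79) and the lipid droplet protein PNPLA3 (0.78).

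The CCAAT box of the 5 higher cholesterol genes is shown because NF-Y is known to act there with SREBP, and it was chosen for that and not found by a search for shared stretches. Each RefSeq promoter window runs from 250 bases before to 50 after the gene start on GRCh38.p14, and 14237 of the 18417 genes had one. CCAAT, searched on both strands (ATTGG on the other), was in 5 of 5 of these windows, in 14 of 17 of the measured cholesterol genes that had one, and in 35.7% of all 27305 windows. The 30 bases around the match nearest before the start are given 5′ to 3′ on the strand of the gene, with the match in capitals. A match describes letters and shows no binding.
HMGCS1, chr5:43313496-43313525, minus strand: tctaccggccgcgATTGGctgtgggagcca
DHCR7, chr11:71448425-71448454, minus strand: gggtccgcctccgATTGGcaggcaatcgct
INSIG1, chr7:155297695-155297724, plus strand: ccgccggcctcccATTGGttgcggccgcct
LSS, chr21:46228908-46228937, minus strand: tcgcggcgctctgATTGGttgcgtgggcgt
MSMO1, chr4:165327622-165327651, plus strand: gagctctcgcaggCCAATaacgacaggacg

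The same EED pool was also tested in cells without RNF2 siRNA. In siEED against siNTC, on arrays that the comparison above does not use, 688 genes were higher (3.74%) and 485 lower (2.63%). Of these, 634 of the higher (92.2%) and 437 of the lower (90.1%) were not called in siEED+RNF2 against siRNF2, where 96.7% of all genes were not called. After centring arrays on the gene median, 502 were higher and 730 lower, so the balance of this comparison depends on the scaling. With the mean of siWDR5 and siSETD2 in place of siNTC, 383 were higher and 168 lower, of which 207 and 79 were among the 688 and 485.

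The lower genes of both comparisons shared 42 members, which is 7.53% of the 558 and 8.66% of the 485, and 38 of the 558 (6.81%) were higher in siEED than in siNTC. The higher genes shared 16, or 36.4% of the 44 and 2.33% of the 688, and 6 of the 44 (13.6%) were lower in siEED. Across all genes, which are not independent replicates, both differences correlated at r = -0.02 (Spearman correlation -0.04). CENPE, KIF20B, EEA1, AKAP9 and ZNF92 were lower in both, with siEED minus siNTC log2 values of -1.18, -1.13, -0.77, -0.96 and -0.76. ADAMTS9, PKDCC, IGFBP5, STMN2 and LEFTY2 were higher in both, with values of 0.81, 1.47, 1.99, 0.92 and 1.07.

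The difference between what the pool added with and without siRNF2 was tested as an interaction, (siEED+RNF2 minus siRNF2) minus (siEED minus siNTC). It was higher in 717 genes (3.89%) and lower in 1369 (7.43%). The larger total of siRNA and reagent in the dual mix enters the interaction too and cannot be told apart from it. Of the 558 genes lower in siEED+RNF2 than in siRNF2, 357 (64%) had a called interaction of the same sign, and of the 44 higher ones 18 (40.9%) did. The interaction contains siEED+RNF2 minus siRNF2, by which these genes were picked, so a shared sign is in part built in. After centring arrays on the gene median, 1381 were higher and 876 lower, and the median of the interaction over all genes was 0.17 in place of 0.04. With siWDR5 and siSETD2 in place of siNTC, 357 were higher and 1155 lower, of which 201 and 745 were among the 717 and 1369. RAD50, SMC6, SMC3 and HOOK1 had interactions of -0.99, -0.92, -0.87 and -1.26. EED, ZNF92, AKAP9 and CENPE had interactions of 0.34, 0.02, 0.18 and 0.22, which were not called.

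The ATF4 amino acid response, a program of amino acid synthesis, import and tRNA charging that cells start under stress, differed between both settings. Of 52 measured genes 38 were higher in siEED than in siNTC (3.74% of all genes tested), with a median log2 difference of 1.05. In siEED+RNF2 against siRNF2, 0 were higher and 1 was lower (1.92%, against 3.03% of all genes tested), with a median of -0.08. The interaction was lower in 42 of the 52 (7.43% of all genes tested), with a median of -1.09. The list already stood high in siRNF2. For siRNF2 minus siNTC, on shared arrays, 42 were higher with a median of 1.15. For siEED+RNF2 minus siNTC 43 were higher with a median of 1.09. The medians over all genes were -0.04 and -0.02, and the shares of all genes called in these comparisons were not counted.

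PCK2, the mitochondrial PEP carboxykinase, measured 9.66 and 9.72 in siEED+RNF2, against 9.86 and 9.88 in siRNF2. It measured 9.27 and 9.29 in siEED, against 6.14 and 6.24 in siNTC, and its interaction was -3.27 (standard error 0.09, limma adjusted p = 4.5e-09). The siNTC arrays stood far below the arrays with EED or RNF2 siRNA.

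INHBE, an inhibin beta chain, measured 9.28 and 9.42 in siEED+RNF2, against 9.71 and 9.56 in siRNF2, and 8.83 and 8.84 in siEED, against 5.50 and 5.40 in siNTC (interaction -3.68). DDIT4, an inhibitor of mTORC1, had a log2 difference of -0.03 in siEED+RNF2 against siRNF2 and of 3.10 in siEED against siNTC. GDF15, a stress-induced cytokine, was the member called lower, with 8.84 and 8.74 in siEED+RNF2, against 9.62 and 9.68 in siRNF2 (-0.86). In place of siNTC, the mean of siWDR5 and siSETD2 gave 26 ATF4 genes higher in siEED and 32 with a lower interaction, with a median of -0.70. Over all 18417 genes tested, the counts with that mean were 383 and 1155.

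The response element of this program is shown because a shared site is known to link its genes. The core TGATGNAA, searched on both strands (TTNCATCA on the other), was in 13 of 42 RefSeq promoter windows of the measured list (31%), against 3.67% of all 27305 windows and 1.24% of 483 windows of genes lower in siEED+RNF2 than in siRNF2. The matches of 4 genes follow, chosen among the 13 for lying before the gene start in genes with well-known roles, 5′ to 3′ on the strand of the gene with the match in capitals.
ASNS, asparagine synthetase, chr7:97872458-97872487, minus strand: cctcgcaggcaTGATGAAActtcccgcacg
CHAC1, of glutathione breakdown, chr15:40953251-40953280, plus strand: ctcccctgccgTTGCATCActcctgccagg
ATF3, a stress transcription factor, chr1:212565205-212565234, plus strand: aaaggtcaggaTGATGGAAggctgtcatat
AARS1, the alanyl-tRNA synthetase, chr16:70289675-70289704, minus strand: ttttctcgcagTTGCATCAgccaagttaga

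ASNS, CHAC1, ATF3 and AARS1 had log2 differences of -0.11, 0.12, 0.15 and -0.09 in siEED+RNF2 against siRNF2 and were not called. In siEED against siNTC the same genes had 1.47, 2.57, 1.17 and 1.11. ATF4 itself, which is known to be controlled mainly in translation, had 0.15 and 0.20.

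**Figure D5:**
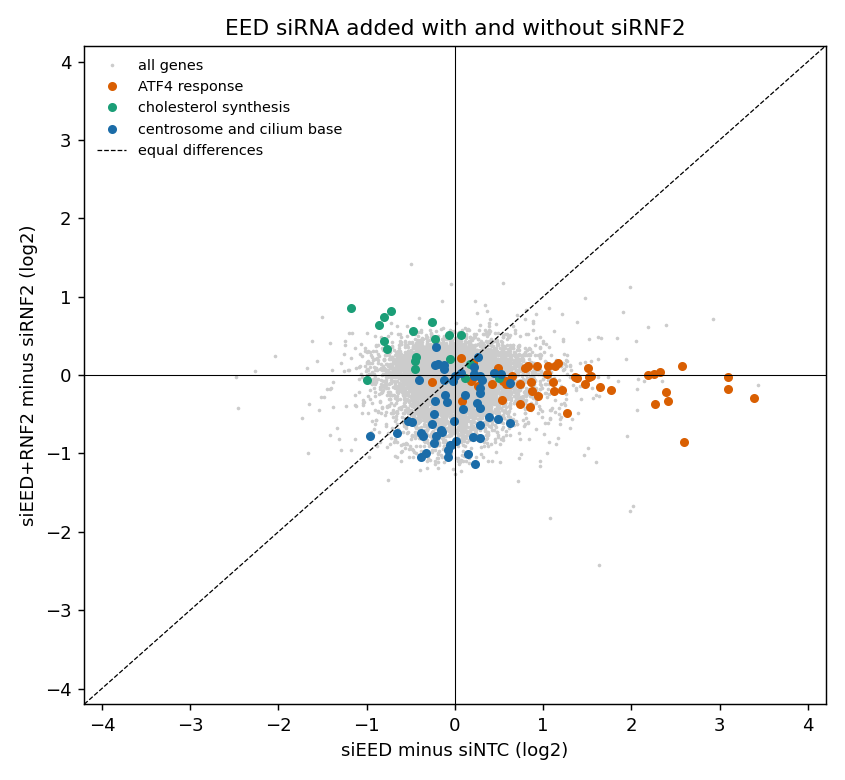
Log2 difference siEED+RNF2 minus siRNF2 (vertical axis) against siEED minus siNTC (horizontal axis), on arrays that do not overlap, 1 point per gene with 3 lists in colour and a dashed line of equal differences. ATF4 genes (orange) extend to the right near 0 on the vertical axis (medians 1.05 and -0.08), cholesterol genes (green) lie left and above 0 (medians -0.45 and 0.44), and centrosome genes (blue) reach downward (medians -0.03 and -0.47).

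Cholesterol genes called in siEED against siNTC were lower, unlike those called in siEED+RNF2 against siRNF2, and most members were called in neither direction in each comparison. Of the 19, 7 were lower and 0 higher in siEED than in siNTC (median -0.45), and the interaction was higher in 12 (3.89% of all genes tested) with a median of 0.68. HMGCS1 measured 11.09 and 11.13 in siEED, against 12.30 and 12.28 in siNTC, and its interaction was 2.04 (limma adjusted p = 8.8e-08). With the mean of siWDR5 and siSETD2 in place of siNTC, 2 were lower in siEED (median -0.22) and the interaction was higher in 11. Over all 18417 genes tested, the counts with that mean were 168 and 357. The siNTC arrays enter every value of siEED minus siNTC and of the interaction, and none of siEED+RNF2 minus siRNF2.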

How the data were processed

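The authors deposited 1 table of log2 values for 33297 transcript clusters, 1 column for each of the 12 arrays, and 0 columns were left out. The tools in the submitters' processing notes are GCRMA, a background correction and quantile method, and Partek. What versions and options they had is not given in the sources used here. Normalization between arrays sets how bright an array is as a whole, and with it the balance of higher and lower genes, and no other was applied in the main results. Gene names came from the platform's annotation and were brought up to date through gene numbers in RefSeq (GRCh38.p14). Of the clusters, 12083 had no gene listed, 19460 had 1 gene (19429 matched) and 1754, with several, were not used. The brightest cluster stood for a gene (769 genes had several), which left 18417 genes with no filter on dim ones. Spans and promoter windows came from RefSeq.

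With limma 3.58.1 (R 4.3.3), 1 model with 6 condition means was fitted over the 12 arrays, with 6 residual degrees of freedom, followed by contrasts, empirical Bayes moderation and Benjamini-Hochberg adjustment over all genes. The same code was tested on simulated data with known differences. The plots used matplotlib 3.10.9 (Python 3.11.15).

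The comparison and 25 gene lists, 1 of them the ZNF genes by symbol, were chosen with earlier results of these data known, so lists are described by counts and medians with no test. Besides the genes of the promoter windows and the ends of the PRC1 range, named by their match or value, genes were named by rule: the EED target, SUZ12, ZNF92 and AKAP9, the PRC2 subunits, the 15 highest and 15 lowest called differences with arrays that do not overlap, up to 5 called and 4 bright uncalled members of each list, and the 10 highest and 10 lowest called interactions. Named RNA and open reading frame symbols without a function were counted only, except the small nuclear RNA genes. Alternatives were a fit of the compared arrays alone, the replicate block, no moderation, a variance trend, quantile normalization, 2 centrings, no dim genes, clusters averaged per gene, every cluster, other thresholds, each array left out, and, chosen after the data were seen, siWDR5 and siSETD2 in place of siNTC.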

Additional observations from a re-analysis of the deposited data

Results flagged for a closer look

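By limma's test of the interaction, siEED+RNF2 minus siRNF2 departed from siEED minus siNTC in 717 genes upward and 1369 downward. The larger total of siRNA and reagent in the dual mix is part of this departure and cannot be told apart from it. The lowest interactions on the log2 scale were those of TAC1 (-4.05), CLGN (-3.72), LAMP3 (-3.69), INHBE (-3.68), HHIP (-3.56), GDF15 (-3.46), PCK2 (-3.27), DDIT4 (-3.12), SV2B (-2.90) and ALDH1L2 (-2.74). HHIP, a hedgehog inhibitor, had a log2 difference of -0.13 in siEED+RNF2 against siRNF2 and 3.43 in siEED against siNTC, and ALDH1L2, a mitochondrial folate enzyme, had -0.33 and 2.41.

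The highest were those of A2M (2.45), ZNF729 (2.30), LYVE1 (2.24), LMO3 (2.06), DUSP6 (2.04), HMGCS1 (2.04), ACTG2 (1.91), EGR1 (1.84), THBS2 (1.76) and MAP1A (1.74). A2M, a protease inhibitor, had log2 differences of -0.03 in siEED+RNF2 against siRNF2 and -2.48 in siEED against siNTC. DUSP6, a phosphatase of ERK, had -0.42 and -2.46, and LYVE1, a hyaluronan receptor, had 0.74 and -1.50. All of these values use the siNTC arrays, whose own part in them was not tested. A2M measured 8.53 and 8.69 in siNTC and at most 6.55 in any other array, siWDR5 and siSETD2 included. ZNF729 measured 7.60 and 8.14 in siNTC and at most 5.76 elsewhere. Other genes differed, as DUSP6 measured 7.94 and 7.80 in siWDR5 against 7.95 and 8.02 in siNTC. PCK2 measured 5.87 and 5.94 in siSETD2 and 8.76 and 8.69 in siWDR5, against 6.14 and 6.24 in siNTC. Groups of 2 arrays allow no check for outlying arrays.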

How the results depend on the processing

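Of the named genes, 0 changed direction beyond the threshold. After centring on the gene median, 79 genes were higher in siEED+RNF2 than in siRNF2, 730 lower in siEED than in siNTC, and the interaction was higher in 1381 and lower in 876. With every transcript cluster tested, 99 were higher in siEED+RNF2, 1050 higher and 1089 lower in siEED, and 1401 had a higher interaction. Without the fold threshold the counts were 1110 higher and 2088 lower in siEED+RNF2, 3039 and 3481 in siEED, and 2667 and 2947 for the interaction. At a fold of at least 2 they were 4 and 64, 161 and 64, and 116 and 340. With the mean of siWDR5 and siSETD2 in place of siNTC, 383 were higher and 168 lower in siEED, and 357 had a higher interaction. Without 1 array in turn, 55 to 84 genes were higher and 467 to 694 lower in siEED+RNF2, the highest count of higher genes being 84 without siRNF2 replicate 2.

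The share of lower calls in siEED against siNTC was 41.3% as deposited and 59.3% with gene centring, and for the interaction 65.6% and 38.8%. Same-numbered arrays of siRNF2 and siEED+RNF2 deviated together at a correlation of 0.16, and over 15 pairs of groups at -0.11 to 0.16, so the numbers were not taken as pairs. With the replicate block 44 genes were higher and 558 lower in siEED+RNF2, 688 and 485 in siEED, and 716 and 1370 for the interaction, and no named gene changed its call.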
